A study of Mus musculus with 31 samples.

Results

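The genes described here are *Pgm5* and 9 myoepithelial and smooth muscle genes. These are the contractile genes *Acta2*, *Myh11*, *Mylk*, *Cnn1*, *Tagln* and *Actg2*, the oxytocin receptor gene *Oxtr*, and the basal keratins *Krt5* and *Krt14*. All were matched by symbol to the Ensembl identifiers of the count tables, and all 10 were found among 55379 genes. All 10 passed the filter on low counts that left 14362 genes for testing. *Pgm5* was taken because it was lower with fluoxetine in these same libraries, so its fluoxetine values are given as a description without a test, and the question is whether the contractile genes moved with it over the 4 diet and drug groups. The glands came from C57BL/6J dams on lactation day 10, all bred from 6 weeks of age. The dams ate a breeder diet with 4 mg/kg folic acid (FA) or the same base diet with 24 mg/kg, beginning before mating. From embryonic day 13 they were injected with saline or with fluoxetine, an SSRI that blocks the reuptake of serotonin (5HT), at 20 mg/kg/day. By the sample labels, the breeder diet was given to 8 dams with saline and 7 with fluoxetine and the FA diet to 8 dams with each, with 1 library per dam. The groups are called breeder diet + saline, breeder diet + fluoxetine, and so on. The methods of the study give the smaller group as FA diet + fluoxetine instead, and the groups here follow the labels.

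Myoepithelial cells form a contractile layer around the milk-secreting alveoli and along the ducts. Oxytocin from the pituitary binds the oxytocin receptor on these cells, calcium rises, calmodulin activates myosin light chain kinase, and smooth muscle myosin pulls on actin so that milk is pushed into the ducts. Pgm5, also called aciculin, belongs to the phosphoglucomutase family by sequence but is known as a protein of adherens-type junctions in muscle, where it binds dystrophin and utrophin. The same contractile genes are used by the smooth muscle of vessels, and RNA of a whole gland holds both.

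Positions are those of the GRCm39 build in the GENCODE M39 annotation. *Pgm5* (ENSMUSG00000041731) and *Acta2* (ENSMUSG00000035783) lie on the minus strand of chromosome 19, at chr19:24660380-24839229 and chr19:34217737-34232990. *Myh11* (chr16:14012399-14109236, minus strand) and *Mylk* (chr16:34565580-34822790, plus strand) share chromosome 16. *Cnn1* (chr9:22010512-22020926, plus strand) and *Tagln* (chr9:45840909-45847404, minus strand) share chromosome 9. *Actg2* (chr6:83489887-83513551) and *Oxtr* (chr6:112450644-112468040) share chromosome 6, both on the minus strand. *Krt5* is at chr15:101615505-101621346 and *Krt14* at chr11:100093988-100098490, both in keratin clusters and on the minus strand. Of the 10 genes, *Pgm5*, *Acta2*, *Mylk*, *Cnn1*, *Tagln* and *Krt5* overlap other annotated genes, *Acta2* for example *Stambpl1* on the opposite strand. The strand option of the counting is not given in the sources used here, so reads of such overlaps cannot be told apart. *Krt14* shares an identical run of 134 bases with *Krt16*, and *Krt5* shares 140 bases with *Krt6a*, against reads of 130 bases after clipping, so single reads of these stretches could belong to either gene. The longest run shared by *Acta2* and *Actg2* was 29 bases.

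Upstream sequence is shown for *Acta2* and *Mylk*, the pair of the 10 genes that varied together most closely between dams. It is also shown for *Pgm5*, whose r with them was 0.13 and 0.06. RefSeq promoter entries of build GRCm38.p6 were available for 7 of the 10 genes (not *Myh11*, *Tagln* or *Actg2*), and each matched GRCm39 exactly at 1 place. The 250 bases before the RefSeq start were searched on both strands for the CArG box, the binding motif of serum response factor, for a CArG-like element in which at most 1 base of the core is neither A nor T, and for CATTCC, the MCAT motif of TEAD factors. No 2 of the matches shown overlap. Capitals mark the matches, and all sequences read 5′ to 3′ on the strand of the gene. Of the 250 bases, 217 lie within annotated exons of *Acta2*, so windows of 30 bases around its matches are shown, while for *Mylk* and *Pgm5* the stretch before the annotated exon is shown. That of *Mylk* lies inside the gene, before an internal start.
Acta2 MCAT, 146 bases before the start, chr19:34232902-34232931 (minus strand): gagcagaacagaGGAATGcagtggaagaga
Acta2 CArG-like, 84 bases before the start, chr19:34232838-34232867 (minus strand): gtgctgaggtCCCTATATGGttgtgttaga
Acta2 CArG-like, 34 bases before the start, chr19:34232788-34232817 (minus strand): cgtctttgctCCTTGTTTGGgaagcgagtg
Mylk MCAT, 158 bases before the start, chr16:34605070-34605290 (plus strand): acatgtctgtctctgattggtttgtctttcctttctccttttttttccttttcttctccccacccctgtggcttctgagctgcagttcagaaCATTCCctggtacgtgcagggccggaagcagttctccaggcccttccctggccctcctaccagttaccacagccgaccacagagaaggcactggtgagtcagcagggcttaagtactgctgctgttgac
Pgm5, no match, chr19:24839230-24839456 (minus strand): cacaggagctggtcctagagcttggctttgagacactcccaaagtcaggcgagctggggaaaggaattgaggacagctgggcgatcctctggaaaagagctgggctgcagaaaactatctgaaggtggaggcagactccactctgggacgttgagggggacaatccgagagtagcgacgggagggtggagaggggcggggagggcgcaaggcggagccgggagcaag
Of 32851 promoters of the same length, 1.47% held an exact CArG box, 8.59% a CArG-like element and 12.6% CATTCC. *Krt14* also held CATTCC, while *Cnn1*, *Oxtr* and *Krt5* held none of the 3 motifs in this window. These are matches of letters and say nothing of binding.

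Between 15412542 and 36000439 counts were assigned to genes per library. The 20 most abundant genes held 70.1% to 81.0% of the counts in 29 libraries. They held 60.5% in dam 13 of breeder diet + fluoxetine and 39.3% in dam 3 of FA diet + fluoxetine. Values of several genes and lists that turned without these dams are given below in both ways, though not of all. *Pgm5* had 29 to 226 counts per library and *Acta2* 1869 to 12326. Counting error alone accounted for 33.9% of the variance of log2 *Pgm5* between dams of a group, against 0.49% for *Acta2*. Levels are given as CPM, counts scaled to a common library size after TMM normalization.

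Per kilobase of exon, *Acta2*, the smooth muscle alpha-actin, had the highest level of the 10 genes, with a median of 55.7 CPM per kb over 31 dams (28.99 to 92.1). It lay above every other member in all 31 dams. *Tagln* (transgelin, an actin-binding protein, 16.3 CPM per kb), *Cnn1* (calponin, 15.6), *Krt14* (a keratin of basal cells, 15.3) and *Myh11* (the smooth muscle myosin heavy chain, 15.3) formed a second tier. Their order was not resolved, since each lay above the next in only 15 to 18 of the 31 dams. *Krt5*, the partner keratin of *Krt14*, followed at a median level of 7.34 CPM per kb, then *Actg2* (the smooth muscle gamma-actin) at 5.25. *Mylk* (myosin light chain kinase) at 3.66 CPM per kb and *Oxtr* at 3.37 were not resolved from each other either, with *Mylk* above in 18 of 31 dams. *Pgm5* was lowest in level, at a median of 1.06 CPM per kb (0.54 to 2.08), and below *Oxtr* in all 31 dams.

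**Figure D1:**
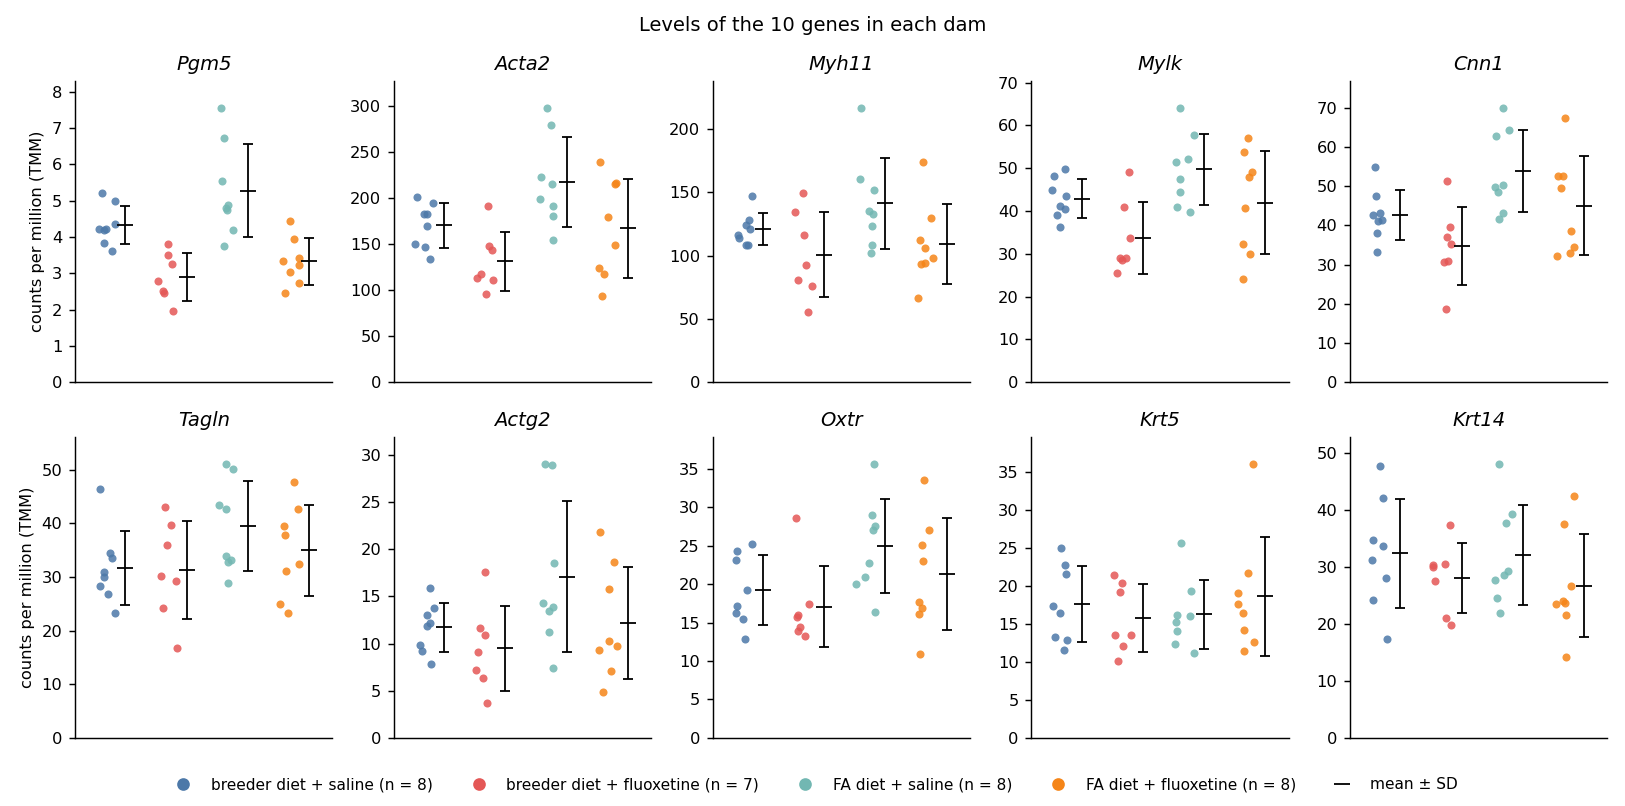
CPM of each of the 10 genes in every dam of the 4 groups, with points for dams and bars for the mean ± SD, on linear axes that start at 0. *Pgm5* in fluoxetine dams lay between 1.95 and 4.43 CPM and in saline dams between 3.60 and 7.54, with overlapping ranges on each diet.

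*Pgm5* was lower in the fluoxetine groups on both diets. Dams on breeder diet + saline had 3.60 to 5.20 CPM (median 4.22), and dams on breeder diet + fluoxetine had 1.95 to 3.79 (median 2.79). On FA diet + saline the range was 3.74 to 7.54 CPM (median 4.83), and on FA diet + fluoxetine it was 2.45 to 4.43 (median 3.28). All 15 fluoxetine dams were below the median of the saline dams on their diet, although the ranges overlapped on each diet. In the model of all 4 groups the *Pgm5* level with fluoxetine was 0.65 times that with saline, a log2 fold change of -0.62 ± 0.12 (SE). It was -0.58 ± 0.17 on the breeder diet and -0.66 ± 0.16 on the FA diet. These values are the ones by which *Pgm5* was chosen. The interaction of drug and diet, which the choice did not use, had a log2 value of -0.08 (95% confidence interval -0.56 to 0.40, adjusted p = 0.98, from the quasi-likelihood test of edgeR, Benjamini-Hochberg adjusted over all genes tested).

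None of the 9 contractile and basal genes passed the 10% false discovery rate for fluoxetine in edgeR's quasi-likelihood test, by which 0.0209% of all genes tested were called. At an unadjusted p of 0.05 or less, 4 of the 9 were below that limit, *Acta2*, *Mylk*, *Myh11* and *Cnn1*, beside 9.92% of all genes tested, and DESeq2 likewise called 0 of the 9 and put 4 below that limit, where it called 70 genes of the whole table (0.487%). The likelihood ratio test of edgeR, which called 45 genes (0.313%), called 0 of the 9 as well. The fitted log2 fold change was below 0 for 8 of the 9, beside 46.5% of all genes. *Acta2*, *Myh11*, *Mylk*, *Cnn1*, *Actg2* and *Tagln* also varied together between dams, so these counts are not of separate observations. The median of the 9 was -0.28 against 0.02 over all genes tested, and the lowest value among them was that of *Actg2*, -0.40 beside -0.62 for *Pgm5*. That order turned when the animal number was added as a replicate block, where *Actg2* had -0.81, *Acta2* -0.60, *Myh11* -0.53 and *Pgm5* -0.52, with none of the 9 called. Without the 2 dams of low share, all 9 were below 0, among them *Krt5* at -0.11, and the same 4 had an unadjusted p of 0.05 or less. The median over all genes tested was then -0.001, and the shares of all genes below 0 or at that limit are not given here. On the breeder diet alone, 2 of the 9 genes (*Acta2* and *Mylk*) had an unadjusted p of 0.05 or less, beside 4.39% of all genes, and all 9 were below 0, beside 49.5%. On the FA diet alone, 2 (*Acta2* and *Myh11*) had such a p, beside 9.98%, and 8 were below 0, beside 45.5%. No gene of the whole table was called on either diet alone in edgeR, whereas DESeq2 called 4 genes on the breeder diet and 16 on the FA diet.

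Among the actin and myosin genes, *Acta2* had 133.5 to 200.8 CPM (median 176.0) in breeder diet + saline and 95.4 to 190.7 (median 117.6) in breeder diet + fluoxetine. On the FA diet it had 154.5 to 297.1 CPM (median 206.8) with saline and 93.6 to 239.3 (median 164.2) with fluoxetine. The groups overlapped on both diets, and 11 of 15 fluoxetine dams were below the saline median of their diet. The log2 fold change of *Acta2* was -0.38 (95% confidence interval -0.64 to -0.12, unadjusted p = 0.0053, adjusted p = 0.36 by edgeR), with -0.37 on the breeder diet and -0.38 on the FA diet. *Myh11* ran from 108.6 to 147.4 CPM (median 118.6) in breeder diet + saline and from 55.8 to 149.5 (median 92.4) in breeder diet + fluoxetine. On the FA diet it ran from 102.1 to 216.2 CPM (median 134.0) with saline and from 66.6 to 174.1 (median 102.0) with fluoxetine. Thus the lowest *Myh11* levels were in fluoxetine dams on both diets, while the highest fluoxetine dam of the breeder diet was above every saline dam of that diet. For *Myh11* the log2 fold change was -0.32 (-0.58 to -0.05, adjusted p = 0.43 by edgeR). *Actg2* had 7.82 to 15.9 CPM (median 12.02) in breeder diet + saline and 3.66 to 17.6 (median 9.09) with fluoxetine on the same diet. Among FA dams its range was 7.37 to 29.1 CPM (median 14.1) with saline and 4.82 to 21.9 (median 10.0) with fluoxetine. It varied most of the 10 genes between dams of a group, and its log2 fold change of -0.40 had an interval from -0.83 to 0.03 (adjusted p = 0.54 by edgeR).

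Among the regulators of contraction, *Mylk* had 36.3 to 49.7 CPM (median 42.4) in breeder diet + saline and 25.6 to 49.1 (median 29.1) in breeder diet + fluoxetine, where 6 of the 7 dams were at 41.0 CPM or less. On the FA diet it had 39.7 to 63.98 CPM (median 49.4) with saline and 24.1 to 57.0 (median 44.4) with fluoxetine. Its log2 fold change was -0.30 (-0.52 to -0.07, unadjusted p = 0.012, adjusted p = 0.41 by edgeR), and 12 of 15 fluoxetine dams were below the saline median of their diet. *Cnn1*, which binds actin and restrains myosin, had 33.3 to 54.9 CPM (median 41.9) in saline dams of the breeder diet and 18.6 to 51.2 (median 35.2) in their fluoxetine counterparts. FA dams had 41.6 to 69.9 CPM (median 50.1) with saline and 32.3 to 67.5 (median 44.1) with fluoxetine, so the ranges overlapped on both diets. The log2 fold change of *Cnn1* was -0.28 (-0.52 to -0.03, adjusted p = 0.46 by edgeR). *Tagln* had means of 35.6 ± 8.47 CPM (SD, n = 16) with saline and 33.3 ± 8.69 (SD, n = 15) with fluoxetine. Its log2 fold change was -0.10 (-0.35 to 0.16, adjusted p = 0.83 by edgeR), and 9 of 15 fluoxetine dams were below the saline median of their diet.

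*Oxtr*, the receptor that starts the contraction, had 12.9 to 25.2 CPM (median 18.2) in breeder diet + saline and 13.3 to 28.6 (median 15.7) in breeder diet + fluoxetine. On the FA diet it had 16.4 to 35.7 CPM (median 24.9) with saline and 10.9 to 33.6 (median 20.4) with fluoxetine. The drug groups overlapped almost fully, and the log2 fold change was -0.20 (-0.48 to 0.08, adjusted p = 0.65 by edgeR). The keratins of the basal layer did not pass the test either. *Krt14* had means of 32.3 ± 8.91 CPM (SD, n = 16) with saline and 27.4 ± 7.59 (SD, n = 15) with fluoxetine, a log2 fold change of -0.24 (-0.53 to 0.05, adjusted p = 0.58 by edgeR). *Krt5* had means of 16.9 ± 4.67 (SD, n = 16) and 17.3 ± 6.43 (SD, n = 15), a log2 fold change of 0.02 (-0.28 to 0.33, adjusted p = 0.98 by edgeR). The highest *Krt5* level, 36.04 CPM, was that of dam 3 of FA diet + fluoxetine, and without this dam the value was -0.09. In a bulk sample, fewer myoepithelial cells and less contractile RNA per cell cannot be told apart, and the 2 keratins, which mark basal cells but take no part in contraction, are given beside the contractile genes for that reason.

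**Figure D2:**
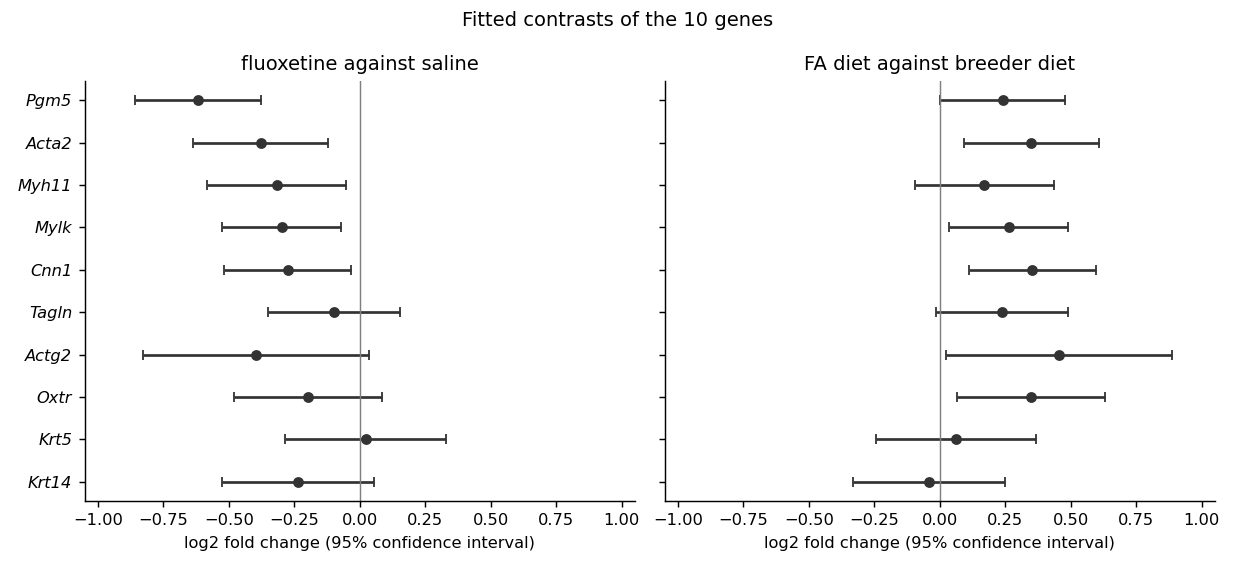
Log2 fold changes of the 10 genes for fluoxetine against saline (left) and FA diet against breeder diet (right), with 95% confidence intervals from the edgeR model of 31 dams. The fluoxetine value of *Pgm5*, -0.62, is the one it was chosen by, and the other 9 lie between -0.40 and 0.02.

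With FA, 9 of the 10 genes had log2 fold changes above 0 and none passed the 10% false discovery rate in edgeR's quasi-likelihood test, by which 0% of all genes were called (adjusted p = 0.93 to 0.99 for the members). The unadjusted p was 0.05 or less for 6 of the 10, beside 5.08% of all genes tested, and 6 were so with DESeq2, which called 0 members as well. With the likelihood ratio test of edgeR 5 were so. Among saline dams alone 0 of the 10 had such a p in edgeR's quasi-likelihood test, and among fluoxetine dams alone 1 (*Cnn1*). DESeq2 put 1 there in each. The shares of all genes at that limit within each drug are not given here. Over all dams, 1 member of 10 was below 0, beside 46.1% of all genes. *Actg2* had a log2 fold change of 0.46 (0.03 to 0.89), *Cnn1* of 0.35 (0.11 to 0.60), *Acta2* of 0.35 (0.09 to 0.61), *Oxtr* of 0.35 (0.06 to 0.63) and *Mylk* of 0.26 (0.04 to 0.49). The unadjusted p was 0.0057 for *Cnn1* and 0.0093 for *Acta2*. *Pgm5* had 0.24 (0.002 to 0.48, unadjusted p = 0.048, adjusted p = 0.93 by edgeR), with 12 of 16 FA dams at or above the breeder median of their drug. *Tagln* had 0.24, *Myh11* 0.17, *Krt5* 0.06 and *Krt14* -0.04. Median levels were highest in FA diet + saline and lowest in breeder diet + fluoxetine for 8 of the 10 genes, *Pgm5* and its fluoxetine difference included, but not for *Krt5* or *Krt14*. The share of all genes with this order was not counted. Of the 8, *Acta2*, *Myh11*, *Mylk*, *Cnn1*, *Actg2* and *Tagln* also varied together between dams, so they are not separate observations. Without the 2 dams of low share, 3 of the 10 FA values, those of *Acta2*, *Cnn1* and *Oxtr*, had an unadjusted p of 0.05 or less in place of 6, and 8 of 10 were above 0. The median over all genes was then -0.009, and the shares of all genes above 0 or at that limit are not given here.

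Fibroblast markers had diet values that rested on 1 dam. All 8 of 8 genes of that list (*Col1a1*, *Col3a1*, *Dcn* and others) had log2 fold changes above 0 with FA, their median was 0.55 against 0.02 over all genes, 3 had an unadjusted p of 0.05 or less, and none was called. Without dam 3 of FA diet + fluoxetine the median was 0.05, and without both dams of low share it was 0.07, with 6 of 8 above 0. Their summed level on the breeder diet ran from 90.9 to 203 CPM (median 134.3) with saline and from 56.2 to 189 (median 137.7) with fluoxetine. On the FA diet it ran from 121.5 to 320 CPM (median 155.8) with saline and from 72.2 to 1017 (median 111.1) with fluoxetine, where 143.0 was the highest without dam 3. The medians were thus higher on the FA diet with saline and lower with fluoxetine. None of the 8 was at 0 in all dams. The part of such cells in the values of the contractile genes was not tested. No member passed the interaction test in edgeR, which called 0% of all genes, and none had an unadjusted p of 0.05 or less in edgeR or in DESeq2, beside 3.84% of all genes in edgeR. The log2 interaction values ran from -0.18 (*Actg2*) to 0.36 (*Krt5*, 95% confidence interval -0.25 to 0.97).

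Whether the genes varied together was examined between dams of the same group, after the group mean of log2 CPM was taken from each value, so that the drug and diet effects themselves play no part. Pearson's r and Spearman's rho were tested by permutation of dams within groups with 100000 resamples, two-sided, and adjusted by Benjamini-Hochberg over 14361 genes. With *Pgm5*, none of the other 9 genes was called at 10%, beside 0.139% of all genes tested (20 genes), and 2 of 9 had an unadjusted p of 0.05 or less, beside 13.3% of all genes. The median r with *Pgm5* over the 9 was 0.13, against 0.004 over all genes.

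No actin, myosin or other contractile gene was called with *Pgm5*. Counting error made up 33.9% of the variance of *Pgm5* between dams of a group, so a low r does not show that they vary apart. *Acta2* had an r of 0.13 (permutation p = 0.51, adjusted p = 0.81, rho 0.20 with permutation p = 0.32), and 0.20 without the 2 dams farthest from the median of *Pgm5*. *Mylk* had 0.06, *Actg2* -0.02, *Myh11* -0.14, *Tagln* 0.17 and *Cnn1* 0.21, with adjusted permutation p between 0.70 and 0.98. In breeder diet + saline *Cnn1* had an r of 0.91 with *Pgm5* and *Tagln* of 0.74 over 8 dams, but in FA diet + saline *Cnn1* had 0.01 and *Tagln* -0.12. *Acta2* had 0.53 and -0.14 in these groups, and *Myh11* -0.40 and -0.20. When the group means were left in, *Acta2* (r = 0.52, adjusted permutation p = 0.069) and *Cnn1* (r = 0.50, adjusted permutation p = 0.080) were called with *Pgm5*, which takes in the fluoxetine difference that *Pgm5* was chosen by.

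*Oxtr* had the highest r with *Pgm5* of the 9 genes, 0.52 (permutation p = 0.0048, adjusted p = 0.22, rho 0.56 with permutation p = 0.0022). It stayed at 0.52 without the 2 dams farthest from the median of *Pgm5*, and on the breeder diet it was 0.72 among saline and 0.73 among fluoxetine dams, against 0.53 and 0.31 on the FA diet. By size of r, *Oxtr* was in position 159 among the 14361 genes correlated with *Pgm5*. Without the 2 dams of low share named above the r was 0.54 and passed the threshold (adjusted permutation p = 0.091). *Krt5* came next with 0.38 (permutation p = 0.042, adjusted p = 0.36, rho 0.34 with permutation p = 0.074), from 0.01 in FA diet + fluoxetine to 0.81 in FA diet + saline. *Krt14* had 0.13, and on the FA diet its r was 0.70 among saline dams but -0.66 among fluoxetine dams, a difference that was not tested.

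**Figure D3:**
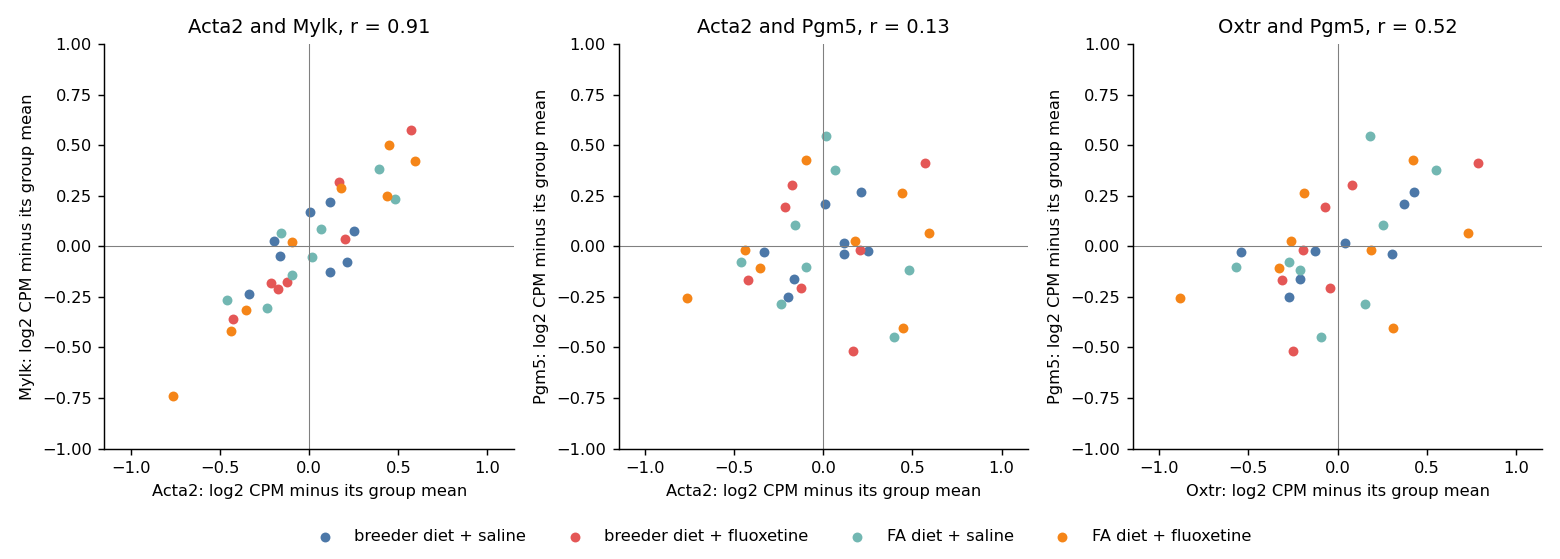
Log2 CPM minus the group mean for *Acta2* and *Mylk*, *Acta2* and *Pgm5*, and *Oxtr* and *Pgm5*, 1 point per dam and 31 dams in each panel. The points of *Acta2* and *Mylk* lie along a line (r = 0.91), those of *Acta2* and *Pgm5* do not (r = 0.13), and those of *Oxtr* and *Pgm5* are in between (r = 0.52).

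Among themselves, the contractile genes varied closely. Over the 15 pairs of *Acta2*, *Myh11*, *Mylk*, *Cnn1*, *Actg2* and *Tagln* the within-group r ran from 0.58 to 0.91 with a median of 0.78, against -0.14 to 0.21 with a median of 0.10 for *Pgm5* with these 6. The correlation with *Acta2* over all genes was computed after the data had been seen. Of 14361 genes, *Mylk* (r = 0.91), *Actg2* (0.88) and *Cnn1* (0.84) held the first 3 places, each with a permutation p of 1e-05, the smallest that the resamples can give, and an adjusted p of 0.036. Spearman's rho was 0.88, 0.87 and 0.85, also with a permutation p of 1e-05, and without the 2 dams farthest from the median of *Acta2* r was 0.87, 0.84 and 0.82. *Myh11* was in place 8 with 0.70 (permutation p = 4e-05, adjusted p = 0.096, rho 0.64 with permutation p = 0.00047). Hence 4 members were called with *Acta2*, beside 0.0418% of all genes tested (6 genes), and 6 of 9 had an unadjusted p of 0.05 or less, beside 5.94%. The call of *Myh11* was lost without any 1 of 30 of the 31 dams (adjusted permutation p up to 0.39), the exception being dam 2 of FA diet + fluoxetine, whereas those of *Mylk*, *Actg2* and *Cnn1* held without each dam. *Tagln* was not called (r = 0.64, permutation p = 0.00041, adjusted p = 0.29), and its closest member was *Cnn1* with an r of 0.83.

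The coupling was looser in breeder diet + saline, the group with the narrowest *Acta2* range. There *Acta2* had an r of 0.42 with *Mylk*, 0.41 with *Cnn1* and -0.28 with *Myh11*, but 0.72 with *Actg2*, over 8 dams. In breeder diet + fluoxetine the same values were 0.96, 0.90, 0.95 and 0.95 over 7 dams, and in FA diet + saline 0.89, 0.92, 0.80 and 0.90 over 8 dams. In FA diet + fluoxetine they were 0.97, 0.91, 0.69 and 0.89 over 8 dams. Differences between the groups in these values were not tested. *Oxtr* had an r of 0.52 with *Acta2* (permutation p = 0.0092, adjusted p = 0.71), from 0.01 in FA diet + saline to 0.72 in breeder diet + saline, and so stood between the contractile genes and *Pgm5*. Without the 2 dams farthest from the median of *Acta2* the r of *Oxtr* was 0.32. The keratins had a lower r with *Acta2* than *Oxtr* had, 0.33 for *Krt14* and 0.16 for *Krt5*, and 0.40 with each other. *Krt14* had 0.53 with *Tagln* and 0.50 with *Cnn1*, and 0.23 to 0.37 with the other contractile genes. *Krt5* had -0.08 to 0.17 with the contractile genes.

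**Figure D4:**
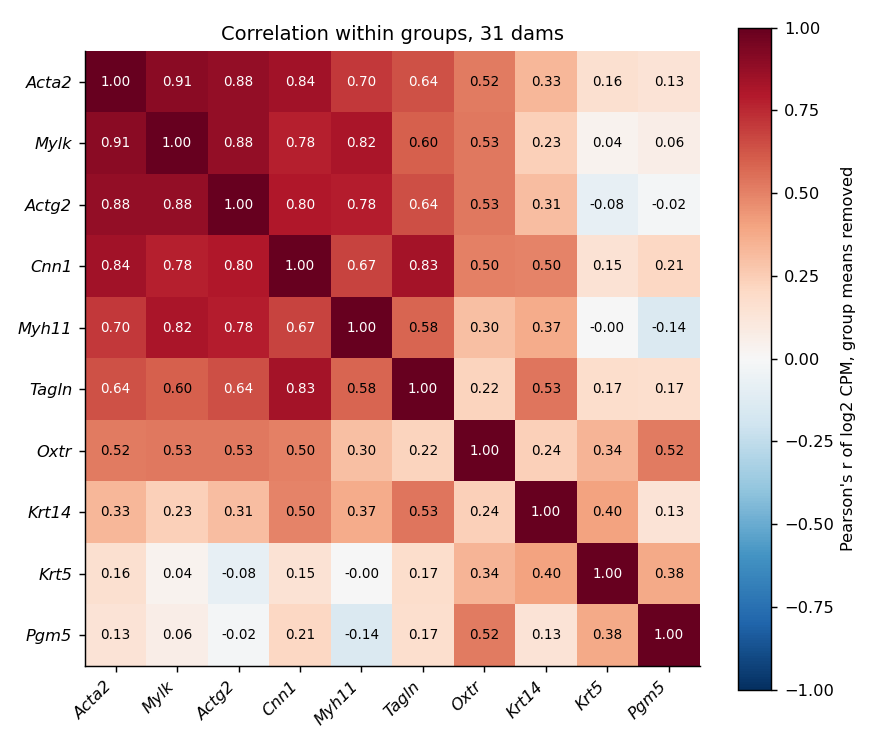
Pearson's r between the 10 genes over 31 dams, computed on log2 CPM with group means removed. The block from *Acta2* to *Tagln* runs from 0.58 to 0.91, and the row of *Pgm5* is at 0.21 or less apart from *Krt5* (0.38) and *Oxtr* (0.52).

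The 5 genes with the highest within-group r with *Pgm5* were not muscle genes of the lists. They were *Mrfap1* (r = 0.78, adjusted permutation p = 0.064, rho 0.71), the cytoplasmic gamma-actin *Actg1* (0.69, rho 0.70), the processed pseudogene *Gm15459* (0.68, rho 0.69), the small GTPase *Rap2c* (0.68, rho 0.70) and the pseudogene *Ap2m1-ps* (0.67, rho 0.65). Lowest were *Zfhx3* (-0.74, rho -0.71), *Thap7* (-0.71, rho -0.62) and *Cenatac* (-0.70, rho -0.65). All 8 were called by r (adjusted permutation p = 0.064 to 0.080) and none by rho (adjusted permutation p = 0.11 to 0.18), and their r without the 2 farthest dams kept a size of 0.57 to 0.70. Their own r with *Acta2* was between -0.24 and 0.34.

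Lists of related genes placed these values among their pathways, and no gene of these lists passed the threshold for fluoxetine, FA or the interaction. The contractile apparatus around the members (21 of 21 tested) had 12 genes below 0 and 9 above 0 with fluoxetine, with a median log2 fold change of -0.02. That median was the value of *Des*, which had a standard error of 0.81. *Des*, *Tpm1* (standard error 0.38) and *Tpm2* (0.355) had the largest standard errors of the list. Their r with *Acta2* was -0.31, -0.08 and 0.02. *Lmod1*, the leiomodin that nucleates actin filaments, had -0.35 (adjusted p = 0.43 by edgeR), and *Myl9*, the regulatory light chain that Mylk phosphorylates, had -0.24 (adjusted p = 0.59 by edgeR). With FA 17 of the 21 were above 0, with a median of 0.14. Their median r was 0.33 with *Acta2* and 0.08 with *Pgm5*, and *Myl9* had 0.70 with *Acta2* (adjusted permutation p = 0.11). *Lmod1* had 0.60 with *Acta2* and 0.48 with *Pgm5*.

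Downstream of the oxytocin receptor, 9 of 18 genes had fluoxetine values below 0 and 9 above 0. *Itpr2* and *Itpr1*, which release calcium from the stores, had log2 fold changes of 0.56 and 0.26 (unadjusted p = 0.0030 and 0.042, adjusted p = 0.33 and 0.49 by edgeR), opposite in sign to *Oxtr* and *Mylk*. Of the dense plaque and dystrophin adhesion genes, the complexes to which Pgm5 belongs, 22 of 23 were tested (not *Sgcd*), 14 were below 0 and 8 above, and the median was -0.13. *Vcl*, the plaque protein vinculin, had -0.65 ± 0.29 (SE) and *Sntb1*, a syntrophin, -0.29 ± 0.13 (SE), with adjusted p of 0.46 and 0.47 by edgeR. *Dmd* (dystrophin) had -0.27 and *Utrn* (utrophin) -0.13, with adjusted p of 0.55 and 0.73 by edgeR. This list had a median r of 0.05 with *Pgm5* and 0.03 with *Acta2*. The enzymes of the phosphoglucomutase family had log2 fold changes of -0.21 (*Pgm1*), -0.20 (*Pgm2*), 0.10 (*Pgm2l1*) and -0.18 (*Pgm3*), with adjusted p of 0.62 or more by edgeR, and their r with *Pgm5* was 0.08 to 0.25.

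Regulators of smooth muscle transcription had a median fluoxetine log2 fold change of 0.07 in the 7 of 8 genes tested, with *Mrtfa* at 0.17 and *Mrtfb* at 0.15, and their r with *Acta2* ran from -0.26 to 0.25. Of the 7, 2 were below 0 and 5 above. Without the 2 dams of low share their median was -0.0009, with 4 below 0 and 3 above, and their r with *Acta2* ran from -0.50 to 0.11. The untested gene was *Myocd*, the coactivator myocardin, with 7 counts in all libraries together. Further basal keratins and basement membrane genes (15 of 16 tested) were below 0 in 8 and above 0 in 7, with *Col17a1* at -0.34 and *Egfr* at -0.26 (adjusted p = 0.39 and 0.47 by edgeR). *Krt17* had an r of 0.69 with *Acta2* (adjusted permutation p = 0.25).

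Markers of other cells were checked in the same way. Pericyte and vascular smooth muscle markers, 11 tested of 14, were above 0 with fluoxetine in 8 and below 0 in 3 (median 0.06, *Cspg4* 0.62 and *Mustn1* 0.61, adjusted p = 0.41 and 0.52 by edgeR). Their summed level on the breeder diet was 42.7 to 64.9 CPM with saline and 42.1 to 62.9 with fluoxetine, and on the FA diet 41.3 to 76.0 with saline and 39.7 to 93.5 with fluoxetine. Their median r with *Acta2* was 0.25, with *Rgs5* at 0.47. The untested *Pln* and *Rergl* had 16 and 2 counts over all libraries. Skeletal muscle markers ranged from 1.89 to 8880 CPM in sum, and all 15 had a negative r with *Acta2* (-0.38 to -0.27), while their r with *Pgm5* lay between -0.10 and 0.14. With *Acta2*, 0 of the 15 had an unadjusted permutation p of 0.05 or less, beside 5.94% of all genes tested. Fluoxetine values of this list had a median of -0.07 (*Neb* -0.44, *Myh1* -0.26), with standard errors of 0.79 and 0.98 for these. Luminal and milk genes were below 0 in 9 of 10 with a median of -0.12 (*Krt18* 0.24, *Krt8* -0.10). Adipocyte (median -0.02, *Adrb3* 0.51, *Lep* -0.50), endothelial (0.20, *Emcn* 0.42, *Egfl7* 0.48), leukocyte (0.25, *S100a8* 1.25, *Lyz2* 0.44) and fibroblast markers (0.07, *Dcn* 0.41, *Dpt* 0.23) had no called gene for fluoxetine. Several of these medians turned without the 2 dams of low share, again with no called gene in these lists. Fibroblast markers then had a fluoxetine median of -0.49, against -0.001 over all genes. All 8 were below 0 and 5 had an unadjusted p of 0.05 or less in edgeR (*Dcn* -0.22, *Dpt* -0.38), counts without a share of all genes. Leukocyte markers had -0.15 (*Lyz2* -0.12), adipocyte markers -0.24, pericyte and vascular smooth muscle markers -0.08 with 7 of 11 below 0, and skeletal muscle markers 0.11. Luminal and milk genes had a median of -0.05, with 7 of 10 below 0. Among them *Wap* had 0.06 in place of -0.09, and *Csn2* -0.06 in place of -0.21. The contractile apparatus had -0.12 with 15 of 21 below 0, and its FA median was 0.03 with 14 above 0. *Vcl* had -0.88, *Lmod1* -0.48 and *Itpr2* 0.36 for fluoxetine. The median r of fibroblast markers was 0.39 with *Acta2* and 0.30 with *Pgm5*, and all 8 were positive with both. Without the 2 dams these medians were 0.39 and 0.28, with 8 and 7 of 8 positive.

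**Figure D5:**
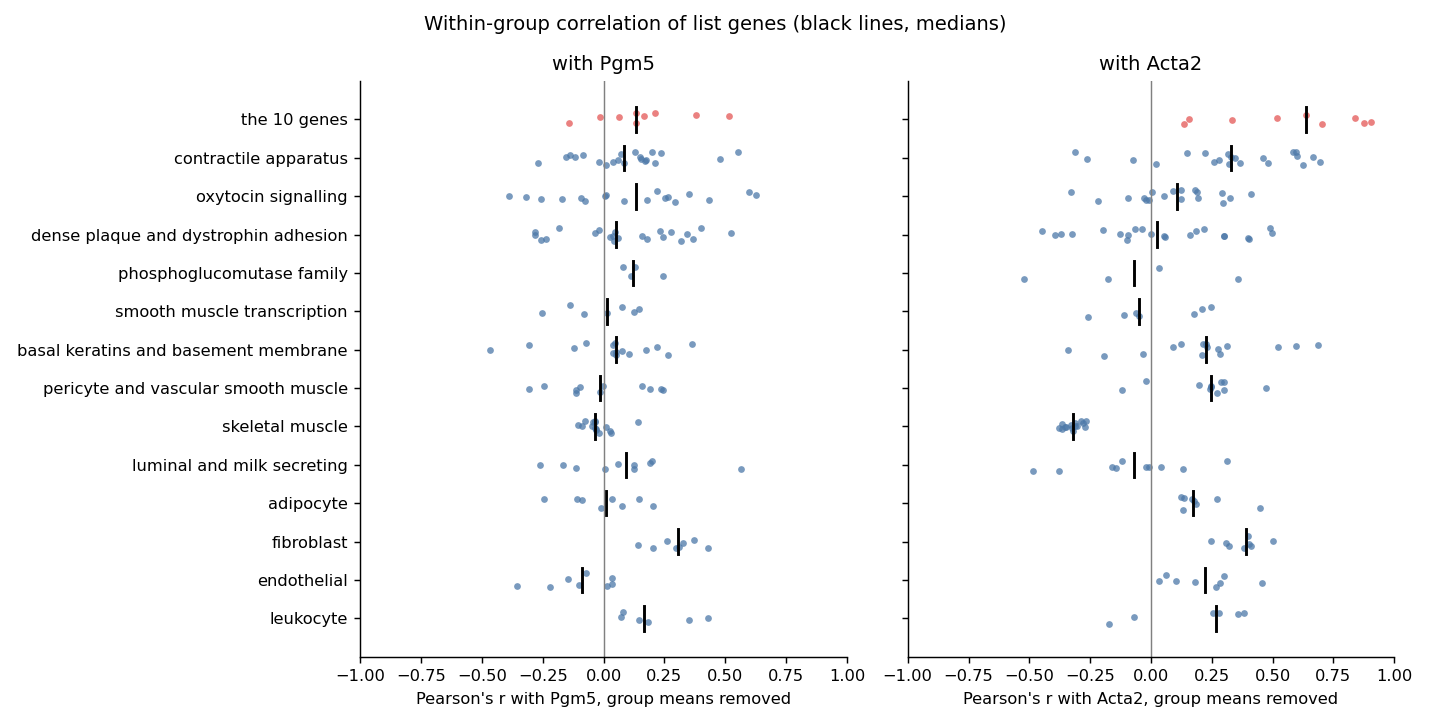
Within-group Pearson's r of each tested gene of the lists with *Pgm5* (left) and *Acta2* (right), 1 point per gene, black lines at the medians. The members sit high with *Acta2* (median 0.64) and near the other lists with *Pgm5* (median 0.13), and the skeletal muscle genes lie together at negative values with *Acta2*.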

How the data were processed

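Polyadenylated RNA of 31 mammary glands was sequenced in paired ends of 150 bases. The authors trimmed the reads with Trim Galore 0.4.4, which left 130 bases at most, aligned them with HISAT2 (build GRCm39) and summed them by gene in HTSeq. The deposited values are raw counts, whole numbers without normalization. The annotation release and the strand option are not given in the sources used here. No library pair of a group agreed within sampling noise (chi-square over degrees of freedom at least 15.8). The labels name no litter or batch, so p-values measure the spread between dams.

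In edgeR 4.0.16 (R 4.3.3), genes were filtered by group, which removed 41017, normalized with TMM, and fitted with the 4 groups by the robust quasi-likelihood method. Fluoxetine and FA were contrasts averaged over the other factor, tested beside their interaction with Benjamini-Hochberg adjustment over all genes tested at 10%. Log2 CPM carry a prior count of 2. Correlations used Python 3.11.15, as did figures. Both steps were tested on simulated data. DESeq2 1.42.0 was an alternative.

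The members and lists were chosen with earlier results of these data known. Named beside the 10 members were, of each list, any gene past the threshold or else the 2 genes of smallest fluoxetine p, the phosphoglucomutase family, and the 5 highest and 3 lowest correlations with *Pgm5*. Other genes named were chosen after their values were seen. Alternatives were the likelihood ratio test, DESeq2, other filters, normalizations and models, the animal number as a block, and each dam left out.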

Additional observations from a re-analysis of the deposited data

Results flagged for a closer look

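*Oxtr* in dam 7 of breeder diet + fluoxetine stood apart from its group, with 28.6 CPM against 13.3 to 17.5 CPM in the other 6 dams. The gap to the next dam was 0.64 of the whole range of log2 CPM, above the limit of 0.568 for 7 samples. The same dam had the highest *Acta2*, *Myh11*, *Mylk*, *Cnn1*, *Tagln*, *Actg2* and *Pgm5* levels of its group. Without it the fluoxetine log2 fold change of *Oxtr* was -0.29 (adjusted p over all settings 0.40 or more by edgeR). Of 40 combinations of gene and group this was the only one past the limit, and chance alone flags about 1 in 20.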

How the results depend on the processing

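None of the 9 members apart from *Pgm5*, which was not tested, was called for fluoxetine, and none of the 10 for FA or the interaction, under any alternative or with any dam left out (0 genes). The fluoxetine log2 fold change of *Pgm5* ran from -0.66 to -0.57 with each dam left out and from -0.66 to -0.52 over the other alternatives. The median over the 9 other genes ran from -0.34 to -0.22 and from -0.41 to -0.24. Their median r with *Pgm5* ran from 0.08 to 0.29 and from 0.06 to 0.32. With *Pgm5*, 0 genes were called without any single dam, 3 (*Oxtr*, *Acta2* and *Cnn1*) with group means left in, and 1 (*Oxtr*) without dam 3 of FA diet + fluoxetine and dam 13 of breeder diet + fluoxetine, a setting chosen after seeing the data. With *Acta2*, 3 to 4 were called with each dam left out and 3 to 6 over the other alternatives. How many of all genes were called with *Pgm5* or *Acta2* in each of these settings is not given here. The counts of members called in them therefore stand without that share.

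*Tagln* had a fluoxetine value of -0.0979, which ran from -0.147 to -0.0438 with 1 dam left out and was -0.0195 on the breeder diet. The sign of other small values turned. *Krt5* had a fluoxetine value of -0.0145 with the replicate block, -0.111 without those 2 dams, -0.158 on the breeder diet and -0.0919 to 0.0868 with 1 dam left out, and an FA value of -0.0235 without those dams, -0.118 in saline dams and -0.0467 to 0.107 with 1 dam left out. *Krt14* had an FA value of 0.0683 with the block and -0.105 to 0.00897 with 1 dam left out. The r with *Pgm5* of *Myh11* was 0.31 with group means left in and 0.16 with the block. That of *Actg2* was 0.32 and 0.0335 in these settings, 0.0544 as Spearman's rho, and -0.134 to 0.0896 with 1 dam left out. That of *Mylk* was -0.0606 to 0.180 with 1 dam left out.

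Animal numbers recur between groups. Of 28 pairs with an equal number 12 had a correlation of deviations over 0.1, with a mean of 0.07 against -0.005 for different numbers. Of 27 dams, 4 correlated best with their own number. These values do not settle whether equal numbers are linked. The dams were not taken as pairs, and the block is given as an alternative. With the number as a replicate block, fluoxetine values were farther from 0 for *Actg2* (-0.81), *Acta2* (-0.60), *Myh11* (-0.53) and *Mylk* (-0.51) and nearer for *Pgm5* (-0.52). Of the 9 genes apart from *Pgm5*, 6 had an unadjusted p of 0.05 or less for fluoxetine with the block, in place of 4, by edgeR's quasi-likelihood test. The share of all genes at that limit is not given here. The count of genes called for fluoxetine was 0 with the block, and *Oxtr* was then called with *Acta2* (r = 0.70, adjusted permutation p = 0.045). The causes were not tested. Of the 10 genes, depth limits *Pgm5* most.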
